A study of Mus musculus with 4 samples.

Results

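The miR-15, miR-16, miR-195 and miR-497 family was followed in extracellular vesicles, the membrane particles that cells release with RNA inside, from healthy and from peroxide-damaged mouse muscle cells. Members were the 5p arms of miR-15a, miR-15b, miR-16, miR-195a and miR-497a in every gene copy, found by their miRBase identifiers (MIMAT0000526 for miR-15a-5p, MIMAT0000124 for miR-15b-5p, MIMAT0000527 for miR-16-5p, MIMAT0000225 for miR-195a-5p and MIMAT0003453 for miR-497a-5p), and the other arm of each of those hairpins. This gave 12 of the 2110 rows of the count table, namely 6 rows of 5p arms and 6 of 3p arms, which stand for 11 mature miRNA identifiers because miR-16-5p is encoded by 2 genes. The vesicles came from C2C12 cells, an established mouse myoblast line of wild-type genotype, grown in medium with 10% fetal bovine serum. By the labels, 2 libraries come from cells damaged by hydrogen peroxide, at a dose and for a time not given in the sources used here, and 2 from cells whose treatment is named WT. Nothing states that a group's libraries are separate cultures, and the p-values then reflect only how far these libraries spread, which may be technical.

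MicroRNAs are short RNAs that pair with messenger RNAs mainly through the seed, bases 2 to 8 from the 5′ end, and lower their translation and stability. The miR-15 and miR-16 family is known for restraining the cell cycle and survival through targets such as cyclins D and E, CDK6 and BCL2. In mouse muscle, miR-195a and miR-497a are known for holding muscle stem cells in quiescence, and miR-195a for the arrest of heart muscle cell division after birth.

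All 5 mature 5p arms of the family hold the same seed, which is why they are read together here. Their mature sequences, from RefSeq on GRCm38.p6, are shown with the seed in capitals.
miR-15a-5p: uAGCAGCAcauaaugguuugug
miR-15b-5p: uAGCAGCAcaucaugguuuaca
miR-16-5p: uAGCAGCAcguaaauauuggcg
miR-195a-5p: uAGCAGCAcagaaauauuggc
miR-497a-5p: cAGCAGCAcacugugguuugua
Counted from 1 at the 5′ end, miR-15b-5p differs from miR-15a-5p by A12C, G20A, U21C and G22A. miR-195a-5p differs from miR-16-5p by G10A and U11G over the 21 bases they share, an identity of 90.5%. miR-16-5p and miR-497a-5p are the most distant pair of the family, with 11 differences in 22 bases. The sequences thus fall into a miR-15a, miR-15b and miR-497a side, with a shared GGUUU stretch near the 3′ end, and a miR-16 and miR-195a side, with a shared AAAUAUUGGC stretch. The 6 3p arms have 6 different seeds, none of them that of the 5p arms.

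The hairpins lie in 3 clusters of 2 each. Mir15b and Mir16-2 lie in an intron of Smc4, a condensin subunit gene, on the plus strand of chromosome 3 (mm10), where miR-15b-5p spans 69009775 to 69009796 and the miR-16-5p copy 69009918 to 69009939. Mir15a and Mir16-1 lie in an intron of Dleu2, a long noncoding RNA gene whose human counterpart is lost in many chronic lymphocytic leukaemias, on the minus strand of chromosome 14. There miR-15a-5p spans 61632075 to 61632096 and the miR-16-5p copy 61631936 to 61631957. Mir497 and Mir195a lie between annotated genes on the plus strand of chromosome 11, with miR-497a-5p at 70234730 to 70234751 and miR-195a-5p at 70235062 to 70235082.

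The miR-16-5p copies are the one case in the family where 1 mature sequence comes from 2 places, as the hairpins show, with the mature arms in capitals (RefSeq, GRCm38.p6, Mir16-1 on the minus strand at chr14:61631880-61631972 and Mir16-2 on the plus strand at chr3:69009902-69009996).
Mir16-1: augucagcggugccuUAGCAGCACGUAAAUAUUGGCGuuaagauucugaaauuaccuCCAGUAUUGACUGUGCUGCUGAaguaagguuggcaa
Mir16-2: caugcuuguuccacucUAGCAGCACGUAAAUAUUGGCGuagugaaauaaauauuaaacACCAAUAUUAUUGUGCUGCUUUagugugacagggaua
The 5p arms are identical, so reads cannot be assigned to a locus, while the 3p arms and the loops differ. The Mir16-1 row held 54.4% of the miR-16-5p counts in the first WT library (exact 95% interval 53.5 to 55.2) and 53.8% in the second (53.2 to 54.5), against 55.6% (54.7 to 56.5) and 53.5% (52.8 to 54.2) in the first and second damaged libraries. The split was thus near even in every library, and the copies are summed where a level of miR-16-5p is given.

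Totals ranged from 4577668 to 7638663 counts over the 4 libraries. A row at 0 can thus hide up to 3 counts, which is 0.393 to 0.655 CPM (counts scaled to a common library size). Intervals and such limits cover counting error only, as the sources used here name no molecular identifiers that would tell PCR copies apart. miRNAs made mainly in muscle (miR-206-3p, miR-133a-3p, miR-133b-3p and miR-1a-3p) took 31.45% ± 2.79 of a WT library and 36.8% ± 1.84 of a damaged one (SD, n = 2). The markers of the labelled cell type were thus present. Of their 5 tested rows 3 rose and 2 did not pass, with a median log2 fold change of 1.12. The 3 were miR-133b-3p and both gene copies of miR-133a-3p, so they are not separate miRNAs. miR-206-3p, the most abundant row of the table, had 0.18 and miR-1a-3p had 0.28. Rows suspected of being fragments of other RNA took 0.226% ± 0.0698 of a WT library and 0.658% ± 0.0345 of a damaged one (SD, n = 2). Of their 10 tested rows 3 were higher, 1 was lower and 6 did not pass, with a median log2 fold change of 1.74. Among all tested rows 4.1% were called higher and 5.41% lower. The share of the suspected fragments moved with the group, and its part in the results below was not tested.

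miR-16-5p was the most abundant member in all 4 libraries. Its summed CPM, scaled for library composition by TMM, was 2828 and 2738 in the WT libraries and 1827 and 2457 in the damaged ones. miR-15b-5p stood at 1036 and 1085 CPM in WT against 368 and 372 CPM in damaged libraries. miR-15a-5p stood at 423 and 497 CPM in WT against 390 and 308 CPM in damaged libraries. In WT the order was therefore miR-16-5p, miR-15b-5p and miR-15a-5p in both libraries, each step beyond the spread between libraries, whereas in damaged vesicles miR-15b-5p and miR-15a-5p stood close together and changed places between the libraries.

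miR-497a-5p and miR-195a-5p, the chromosome 11 pair, were the rarest 5p arms. miR-497a-5p had 68.9 and 58.7 CPM in WT against 30.2 and 22.2 CPM in damaged libraries, so its groups did not overlap. miR-195a-5p had 70.2 and 40.8 CPM in WT against 23.2 and 61.8 CPM in damaged libraries, so its groups overlapped, and its damaged libraries lay far apart. The order of these 2 members changed within both groups. By mean CPM over the 4 libraries, the Mir16-1 and Mir16-2 rows of miR-16-5p, here not summed, ranked 55th and 62nd of the 2110 rows. miR-15b-5p ranked 77th, miR-15a-5p 97th, miR-195a-5p 199th and miR-497a-5p 207th.

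**Figure D1:**
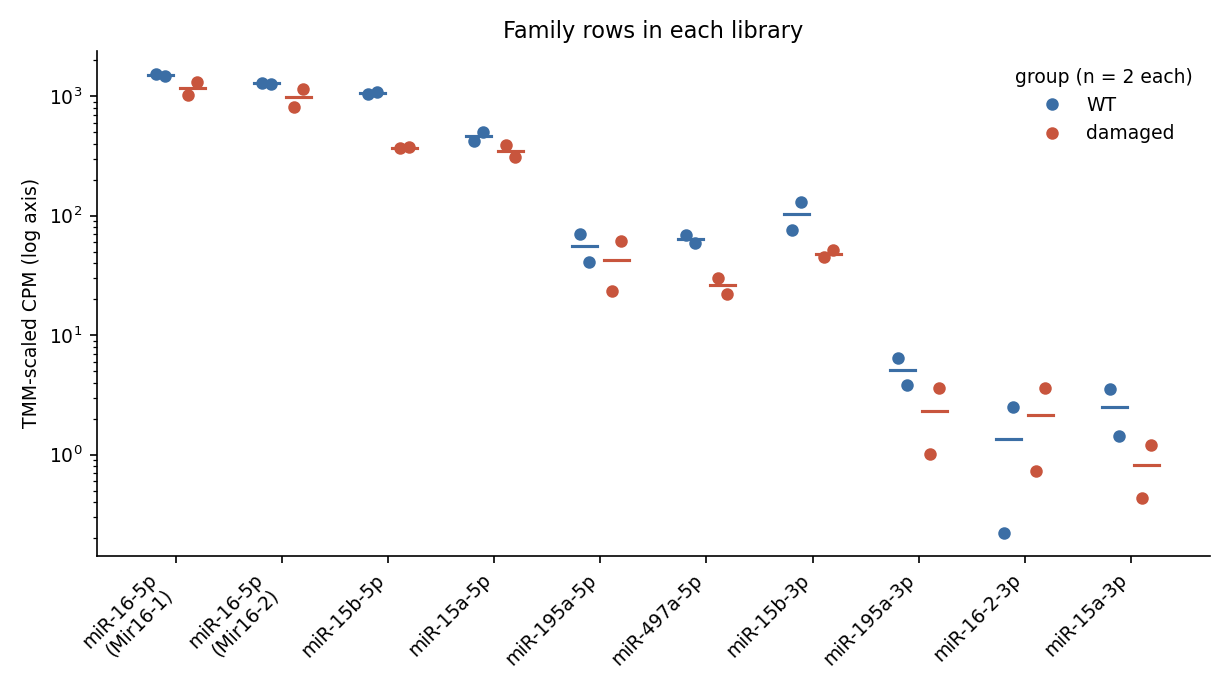
TMM-scaled CPM (log axis) of the 10 family rows with counts, with a point per library and a line at the mean of each group (n = 2). miR-15b-5p shows the widest gap between groups relative to its spread, 1036 and 1085 CPM in WT against 368 and 372 CPM in damaged, while the groups of miR-195a-5p and miR-16-2-3p overlap.

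The comparison of damaged with WT vesicles asks how peroxide damage changed the miRNA cargo. In it, miR-15b-5p and miR-497a-5p fell and the other family rows did not pass the test. miR-15b-5p was 2.87-fold lower in damaged vesicles, with a mean of 1061 ± 35.1 CPM in WT against 370 ± 2.58 CPM in damaged libraries (SD, n = 2), or -1.52 ± 0.12 (SE) as log2 fold change and an adjusted p of 0.00914 by edgeR's quasi-likelihood test. miR-497a-5p was 2.43-fold lower, with 63.8 ± 7.19 CPM in WT against 26.2 ± 5.65 CPM in damaged libraries (SD, n = 2), or -1.28 ± 0.26 (SE) as log2 fold change and an adjusted p of 0.0411. Counts are relative within a library, so fewer vesicles that carry a miRNA and less of it in each vesicle cannot be told apart. Leaving out a library leaves its group with 1, which is then assumed to vary like the other group. With 3 libraries, edgeR kept the call of miR-15b-5p only without damaged replicate 2 (adjusted p = 0.0203) and lost it without either WT library (0.134 for replicate 1 and 0.132 for replicate 2) and without damaged replicate 1 (0.0985), while its log2 fold change stayed between -1.63 and -1.46. In those 3 cases edgeR called 0 rows of the whole table, so that every call named here was lost with it, where 103, 124 and 144 rows had a p under 0.05 before adjustment. DESeq2 called 60, 75 and 77 rows on the same libraries and miR-15b-5p in every case, and limma-voom called 0, 0 and 70. miR-497a-5p was called with edgeR on no set of 3 libraries (adjusted p from 0.0985 to 0.217, log2 fold change -1.54 to -1.09), with DESeq2 on 1 set and with limma-voom on 2.

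miR-15b-5p passed in all 13 settings on 4 libraries, the reported one included (log2 fold change -1.58 to -1.35), and miR-497a-5p in 12 of them (-1.38 to -1.24). The exception for miR-497a-5p was a correction for the GC content of the mature sequence (-1.36, adjusted p = 0.0513 by edgeR).

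**Figure D2:**
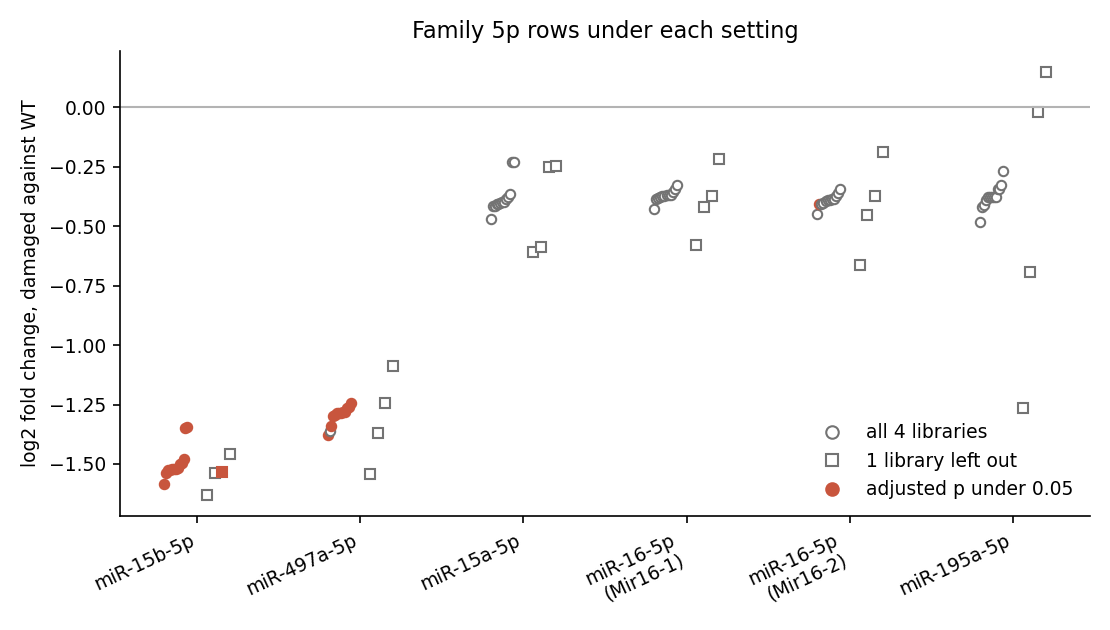
log2 fold changes of the 6 rows of 5p arms under every planned setting on 4 libraries (circles) and with 1 library left out (squares), filled where the adjusted p was under 0.05. miR-15b-5p lies between -1.63 and -1.35 throughout, and miR-195a-5p ranges from -1.27 to 0.15 when 1 library is left out.

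The other 5p arms of the family, among them the cluster partners of miR-15b-5p and miR-497a-5p, gave smaller estimates. miR-16-5p, the neighbour of miR-15b-5p, had 2783 ± 63.3 CPM in WT against 2142 ± 446 CPM in damaged libraries (SD, n = 2); with identical rows summed over the whole table, its log2 fold change was -0.36 with an SE of 0.18 (adjusted p = 0.265 by edgeR, which called 10.1% of the 483 rows tested in that form). Its single rows had -0.37 ± 0.16 (Mir16-1, adjusted p = 0.197) and -0.39 ± 0.19 (Mir16-2, adjusted p = 0.238). miR-15a-5p had 460 ± 51.9 and 349 ± 58.2 CPM (SD, n = 2) and a log2 fold change of -0.40 with an SE of 0.18 (adjusted p = 0.212). miR-195a-5p, the neighbour of miR-497a-5p, had 55.5 ± 20.8 and 42.5 ± 27.3 CPM (SD, n = 2) and a log2 fold change of -0.38 with an SE of 0.53 (adjusted p = 0.703). All of these estimates lie below 0 and none passed the test. Leaving out a damaged library moved miR-16-5p either way. Without damaged replicate 1 the Mir16-1 and Mir16-2 rows stood at -0.22 and -0.19 with edgeR. Without damaged replicate 2 they stood at -0.58 and -0.66. Without it miR-195a-5p stood at -1.27 with edgeR (adjusted p = 0.143) and passed with limma-voom (-1.18, adjusted p = 0.0195), and without damaged replicate 1 it stood at 0.15.

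Of the 12 family rows, 10 passed the filter on low counts and were tested, 2 fell, none rose and 8 did not pass, among 536 tested rows of which edgeR called 9.51%, with 5.41% called lower and 4.1% called higher. At an unadjusted p under 0.05 there were 3 of the 10 family rows, miR-15b-3p among them, which is near the 30.8% of all tested rows at such a p. In 8 of the 10 tested family rows both damaged libraries lay below both WT libraries, which held for 30.8% of all tested rows. In none did both lie above, which held for 29.1%. The 8 rows are not separate members, as they hold both miR-16-5p rows and both arms of Mir15b and of Mir15a. They also include miR-15a-3p and miR-195a-3p, whose counts were low. The median log2 fold change was -0.75 over the 10 rows and -0.39 over the 6 rows of 5p arms, against 0.02 over all 536 tested rows.

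**Figure D3:**
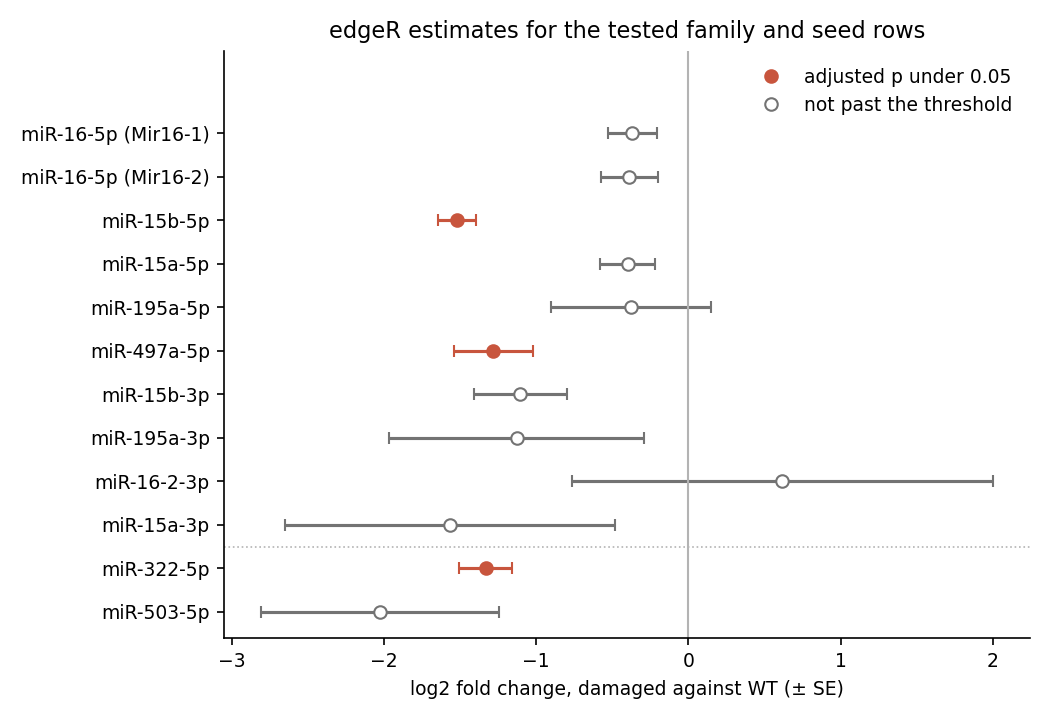
edgeR log2 fold changes of damaged against WT (± SE, 2 libraries a group) for the 10 tested family rows and, below the dotted line, for 2 further miRNAs that share the first bases of the seed. Filled points mark an adjusted p under 0.05: miR-15b-5p at -1.52, miR-497a-5p at -1.28 and miR-322-5p at -1.33.

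Among the 3p arms, which are mostly degraded once the 5p arm is loaded, only miR-15b-3p was well covered.
miR-15b-3p: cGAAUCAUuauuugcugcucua
It had 75.7 and 130 CPM in the WT libraries and 44.9 and 51.1 CPM in the damaged ones, so both damaged libraries lay below both WT libraries. Its log2 fold change was -1.10 ± 0.31 (SE) and its adjusted p 0.0774 by edgeR, on the other side of the threshold from its partner arm miR-15b-5p. It passed without a filter (adjusted p = 0.000384), with a filter of 10 CPM (0.0401) and with DESeq2 (0.0115). Its log2 fold change was -0.87 with the GC correction (adjusted p = 0.155) and -0.63 without WT replicate 2 (0.262). Relative to miR-15b-5p it made up 6.81% of the hairpin's counts in the first WT library (exact 95% interval 6.13 to 7.55) and 10.7% in the second (10.1 to 11.4), against 10.9% (9.75 to 12.1) and 12.1% (11.0 to 13.25) in the first and second damaged libraries. The arms of Mir15b were therefore both lower in the damaged libraries, and the share of the 3p arm varied as much between the WT libraries as between groups.

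The remaining 3p arms were rare or at 0. miR-195a-3p had 29 and 29 counts in WT and 7 and 27 in damaged, which is 6.42, 3.81, 1.02 and 3.59 CPM in that order (log2 fold change -1.13 ± 0.84, adjusted p = 0.423 by edgeR). miR-15a-3p had 16 and 11 counts in WT and 3 and 9 in damaged (adjusted p = 0.394), and miR-16-2-3p had 1 and 19 in WT and 5 and 27 in damaged (adjusted p = 0.839). At such counts these estimates are imprecise, with an SE of 0.84 to 1.39 on the log2 scale. miR-16-1-3p and miR-497a-3p had 0 counts in all 4 libraries, which allows up to 3 counts in each. The miR-497a-3p row shares bases with an entry of Mir497b on the opposite strand. Counting was without strand, and 105 of the 106 rows of the table that share bases in this way had 0 counts in every library, so the 0 of miR-497a-3p says nothing of its level, whereas the row of miR-16-1-3p shares bases with no entry of the opposite strand.

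Over the 4 libraries the 3p arm held 9.98% of the counts of Mir15b and 6.85% of those of Mir195a, against 0.364% for Mir15a and 0.175% for the Mir16-2 row pair. In 165 hairpins of the table with both arms listed, at least 1000 counts and no overlap with the opposite strand, the minor arm held a median of 0.897% (quartiles 0.109 to 5.36). Mir15b and Mir195a thus lay above the upper quartile of these hairpins, and Mir15a and Mir16-2 below the median.

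The family took a smaller part of the damaged libraries, and miR-15b-5p a smaller part of the family. Together the 6 rows of 5p arms held 0.437% and 0.441% of all counts in the WT libraries and 0.262% and 0.3295% in the damaged ones. Without miR-16-5p, the other 5p arms summed to 1598 and 1681 CPM in WT against 812 and 764 CPM in damaged libraries, a mean 2.08-fold lower. Of this, miR-15b-5p alone gave 1036 and 1085 CPM in WT and 368 and 372 CPM in damaged libraries, so the sum largely repeats its fall. These sums are descriptions and carry no test.

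Within the 5p counts of the family, miR-16-5p made up 62.9% ± 1.37 in WT and 72.8% ± 4.99 in damaged (SD, n = 2). The share of miR-15b-5p was 23.4% in the first WT library (exact 95% interval 22.8 to 24.0) and 24.6% in the second (24.1 to 25.02), against 13.96% (13.5 to 14.5) and 11.55% (11.15 to 11.96) in the first and second damaged libraries. miR-15a-5p held 10.4% ± 1.18 and 12.2% ± 3.70 (SD, n = 2), with 14.8% in damaged replicate 1 and 9.56% in damaged replicate 2. miR-195a-5p and miR-497a-5p held under 2% each in every library. In both damaged libraries the share of miR-15b-5p was thus below, and that of miR-16-5p above, both WT libraries, while miR-15a-5p was above them in damaged replicate 1 only.

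**Figure D4:**
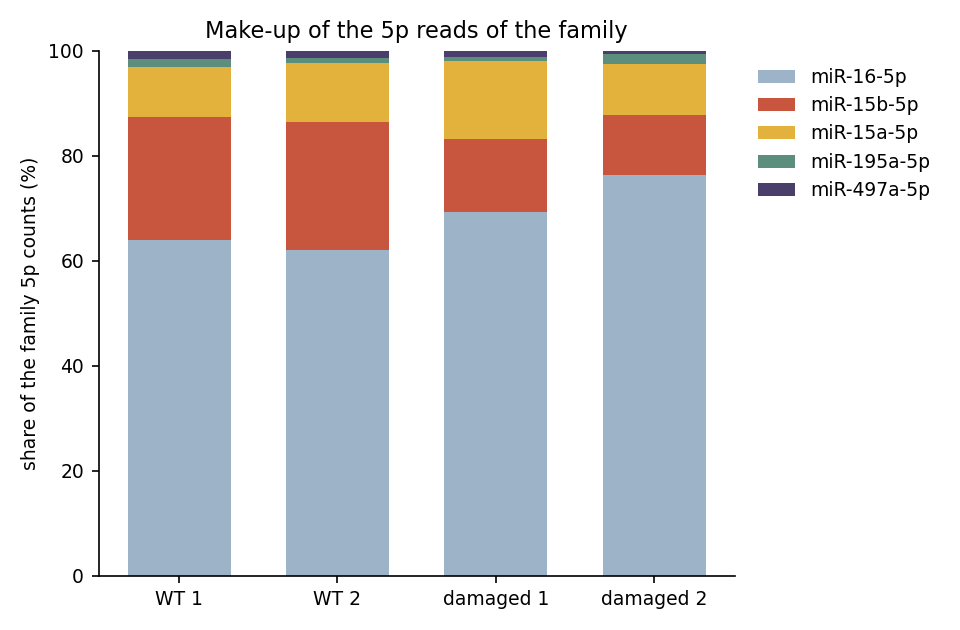
Share of each member in the 5p counts of the family in each library, as stacked bars that sum to 100%. The band of miR-15b-5p narrows from 23.4% and 24.6% in the WT libraries to 13.96% and 11.55% in the damaged ones. The band of miR-16-5p widens, although its CPM was not higher in the damaged libraries.

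Ratios between members within a library do not depend on how libraries are scaled, and 9 of them were compared. The smallest p that the exact permutation test (two-sided) can give with groups of 2 is 0.333, also after adjustment over the 9, and 5 of them reached it, so none can pass 0.05. Counts of miR-15b-5p were 0.366 and 0.396 times those of its cluster partner miR-16-5p in WT and 0.202 and 0.151 times in damaged, a mean ratio 2.18-fold lower (exact permutation p = 0.333). Reads of miR-16-5p also come from Mir16-1, so this is not a ratio of the products of the Smc4 intron alone.

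Set against miR-15a-5p, its paralog of the Dleu2 intron, miR-15b-5p had 2.45 and 2.19 times the counts in WT and 0.944 and 1.21 times in damaged, a mean ratio 2.17-fold lower (exact permutation p = 0.333). These paralogs thus went from unequal to near-equal levels. miR-15a-5p and miR-16-5p kept a ratio of 0.1496 and 0.181 in WT and 0.214 and 0.125 in damaged, and the groups overlapped (exact permutation p = 1). miR-497a-5p and miR-195a-5p, neighbours on chromosome 11, had ratios of 0.981 and 1.44 in WT and 1.30 and 0.359 in damaged, which overlap as well (exact permutation p = 0.667). For that pair the mean difference of -0.80 on the log2 scale rested on damaged replicate 2 and was 0.13 without it. So a test of miR-497a-5p that passed and one of miR-195a-5p that did not do not show that these neighbours differed.

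**Figure D5:**
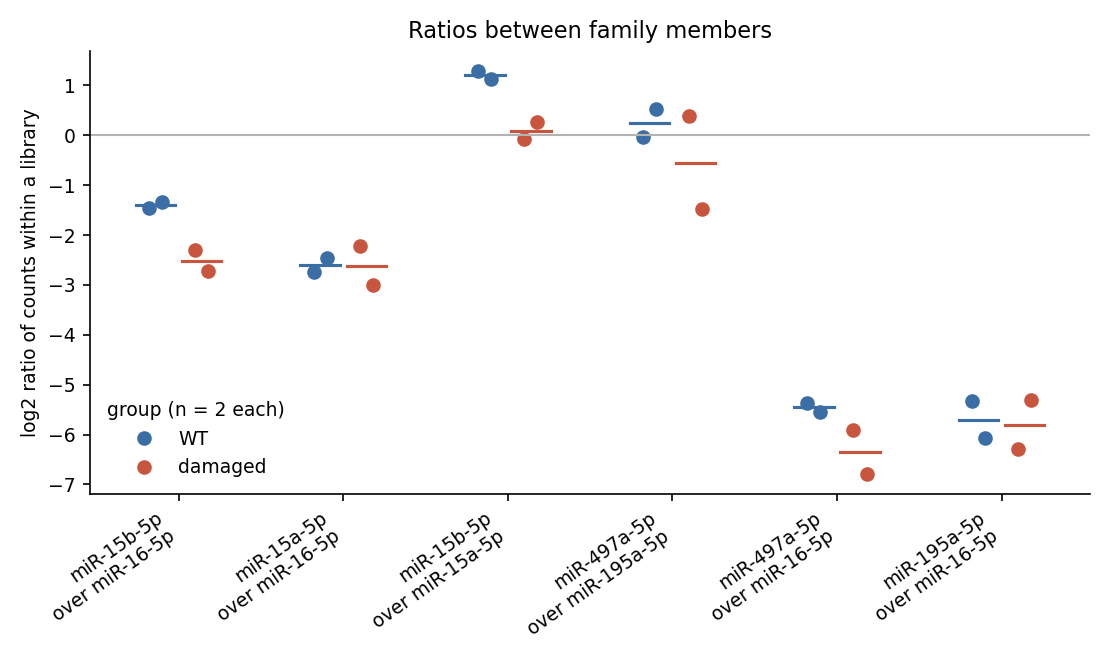
log2 ratio of counts between family members within each library, with a point per library and a line at the mean of each group (n = 2). miR-15b-5p is lower relative to miR-16-5p and to miR-15a-5p in both damaged libraries, and the groups overlap for miR-15a-5p over miR-16-5p, miR-497a-5p over miR-195a-5p and miR-195a-5p over miR-16-5p.

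Beyond the family, 7 rows of the table hold AGCAGC at bases 2 to 7. Of these, miR-322-5p and miR-503-5p, neighbours on chromosome X whose human counterparts are miR-424 and miR-503, were measured, and both are known for promoting cell-cycle exit in differentiating myoblasts.
miR-322-5p: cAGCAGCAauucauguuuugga
miR-503-5p: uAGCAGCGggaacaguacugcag
miR-322-5p holds the whole seed of the family, and miR-503-5p differs from it at the last seed base. miR-322-5p had 2715 and 2592 CPM in WT against 1211 and 897 CPM in damaged libraries. It fell 2.52-fold (log2 fold change -1.33 ± 0.17, SE, adjusted p = 0.0180 by edgeR), a call that edgeR kept without damaged replicate 2 and lost without any other library. miR-503-5p had 22.8 and 33.5 CPM in WT against 2.04 and 11.7 CPM in damaged libraries, and did not pass (log2 fold change -2.03 ± 0.78, SE, adjusted p = 0.153), although it did without a filter (adjusted p = 6.12e-05), with DESeq2 (0.0422) and, with edgeR, without damaged replicate 2 (-3.78, adjusted p = 0.0203). Without damaged replicate 1 its log2 fold change was -1.31 (adjusted p = 0.178). Counts of miR-322-5p were 2.62 and 2.39 times those of miR-15b-5p in WT and 3.29 and 2.41 times in damaged, which overlap (exact permutation p = 0.667).

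The other 5 rows with these bases were miR-195b, with 2 counts in damaged replicate 2 and 0 elsewhere, and miR-6342, miR-6353, miR-6419 and miR-1907-3p, with 0 in every library. All rows with the seed of the family summed to 7140 and 7012 CPM in WT against 3849 and 4119 CPM in damaged libraries, a mean 1.78-fold lower. In WT libraries miR-16-5p and miR-322-5p stood at near-equal levels, with ratios of miR-322-5p to miR-16-5p of 0.960 and 0.947, and in damaged libraries at ratios of 0.663 and 0.365 (exact permutation p = 0.333). miR-322-5p and miR-16-5p thus carried the seed in near-equal amounts in WT, and miR-322-5p carried less of it than miR-16-5p in both damaged libraries.

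For each 5p arm, the most similar rows were sought among the tested rows outside the family. The measure was the Euclidean distance between log2 CPM values, centred per row, over the 4 libraries. For miR-497a-5p the nearest was miR-322-5p, at a distance of 0.132 against a median of 1.61 over the tested rows outside the family. miR-96-5p (0.163) and miR-669b-5p (0.186) followed. Next to miR-15b-5p stood rows named by position as miR-669m-1-5p (0.125) and miR-466c-1-5p (0.127), which have near-identical copies that could split their reads, and a row of miR-7a-5p (0.170). Both miR-16-5p rows had miR-151-5p, miR-130b-3p and miR-196b-5p nearest (0.0807 to 0.198), and miR-15a-5p had miR-1839-5p, miR-185-5p and miR-193a-5p (0.146 to 0.194). miR-195a-5p had miR-322-3p, miR-221-5p and miR-335-3p, all farther away (0.320 to 0.428). With 4 libraries many rows take a similar course, so these are descriptions.

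miRNAs hosted, like miR-15b, in a gene of the cell cycle machinery were listed for comparison, namely those of Mcm7, which encodes a subunit of the replicative helicase. Of 6 tested rows, miR-25-3p (log2 fold change -1.15, adjusted p = 0.00914 by edgeR) and miR-93-5p (-0.81, adjusted p = 0.0335) fell, none rose and 4 did not pass, and the median was -0.99 against 0.02 over all tested rows, of which 5.41% were called lower. Of 21 tested rows of other miRNAs known to restrain the cell cycle, miR-34a-5p (-0.69, adjusted p = 0.0275), a p53 target, and miR-322-5p fell (named because they passed), none rose and 19 did not pass, and the median was 0.03; this count is near the 9.51% called among all tested rows. The miR-34 rows went both ways: miR-34b-5p and miR-34c-5p, on the same list, had 0.41 and 0.63 and did not pass. Their 3p arms, not on the list, had 3.05 (miR-34b-3p, adjusted p = 0.0035 by edgeR) and 0.85 (miR-34c-3p, 0.058). The most abundant members of the list, both let-7c-5p rows, had log2 fold changes of 0.03 and 0.02. let-7b-5p had -0.16, and miR-143-3p had -0.12 (adjusted p = 0.331 or higher by edgeR for each of these 4 rows).

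Blood cells are rich in miR-16, and the medium held bovine serum, so markers of blood cells were read beside the family. Their summed level was 1747 and 1526 CPM in WT against 1557 and 1450 CPM in damaged libraries, nearly all of it from miR-451a, an erythrocyte miRNA with 7603 and 11346 counts in WT and 10291 and 10423 in damaged (adjusted p = 0.533 by edgeR, log2 fold change -0.14). Of the 9 listed names 7 were matched to a row, of which 5 were tested, none passed, and the median was 0.50. miR-144-3p had 0 counts in both WT libraries, miR-144-5p in all but WT replicate 1, and miR-142a-3p in every library, as did the liver marker miR-122-5p; the last pair of rows share bases with the opposite strand, so that their 0 says nothing. The summed level, set by miR-451a, thus overlapped between groups. miR-223-3p overlapped too, with 26.35 and 13.13 CPM in WT against 14.44 and 14.36 CPM in damaged libraries (log2 fold change -0.44). Both damaged libraries lay above both WT libraries in 3 of the 5 tested markers, against 29.1% of all tested rows. These were miR-144-3p, with 12 and 14 counts in damaged, miR-142a-5p, with 1 and 0 counts in WT and 21 and 22 in damaged, and miR-150-5p, with 158 and 173 counts in WT and 250 and 337 in damaged, a higher CPM in both damaged libraries (adjusted p = 0.0807, 0.0903 and 0.332 by edgeR). miR-144-3p and miR-142a-5p passed the filter on low counts only through their damaged libraries. A row so low in WT is tested only if it is higher in damaged. Neither the count of 3 nor the median of 0.50 therefore shows a rise of blood markers. Whether part of the miR-16-5p or miR-15a-5p reads came from serum was not tested.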

How the data were processed

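Small RNA of vesicles, collected by differential centrifugation per the labels' protocols, was sequenced in 2 WT and 2 damaged libraries. The deposited values are raw counts per mature miRNA entry, made by the authors with FastQC, BWA and featureCounts on mm10, per the submitters' processing notes. Per the file headers, featureCounts 2.0.1 ran without a strand option and without options for multi-mapping reads or reads over several features. The sources used here name no BWA version, trimming step or miRBase release.

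Rows were matched by coordinates to RefSeq miRNAs (1734 of 2110 rows, and all 12 family rows) and otherwise named by a shared identifier or their GENCODE vM21 hairpin, and all sequences read from both sources were identical (1681 rows). Damaged was tested against WT over the whole table by quasi-likelihood in edgeR 4.0.16 (R 4.3.3), on TMM-scaled counts kept by filterByExpr (minimum count 10), with no covariate and a Benjamini-Hochberg threshold of 0.05. The SE is the log2 fold change divided by the square root of F. log2 CPM for distances used a prior count of 2. Alternatives were other scalings and filters, DESeq2 1.42.0, limma-voom (limma 3.58.1), robust edgeR, the replicate number as a block, a GC correction, summed copies and leaving out each library, the last with DESeq2 and limma-voom added after seeing the data. No pair of libraries agreed within sampling noise (chi-square per degree of freedom of at least 101.5 between any 2). Named were all family rows and all other rows with AGCAGC at bases 2 to 7. So were the 3 rows outside the family nearest to each 5p arm, and up to 4 members of each list by mean CPM. The called members, the markers at 0 and the rows of miR-34b and miR-34c were added after their values were seen. The members and lists were chosen with earlier results of these data known.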

Additional observations from a re-analysis of the deposited data

How the results depend on the processing

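The number of called rows was 51 in the reported fit, 77 with upper-quartile scaling, 131 without a filter, 91 with the filter of 10 CPM, 109 with DESeq2, 79 with limma-voom, 28 with the GC correction, and 0 to 30 with 1 library left out (60 to 77 with DESeq2 and 0 to 98 with limma-voom, both added after seeing the data). Of the family, 2 rows were called in the reported fit, 1 with the GC correction, and 0 or 1 with 1 library left out (1 to 4 with DESeq2 and 0 to 6 with limma-voom).

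No label says that the replicate numbers pair libraries, and same-numbered libraries deviated from their group means with a correlation of 0.0216. With the replicate block, 127 rows were called, 4 of them of the family, and summed miR-16-5p passed (log2 fold change -0.38, adjusted p = 0.0458 by edgeR, against 0.0458 to 0.279 over all settings on 4 libraries). Its log2 fold change was -0.59 with upper-quartile scaling, against -0.36 as reported. The block also brought past the threshold the Mir16-2 row of miR-16-5p (adjusted p = 0.0393), miR-15b-3p (0.00189) and, outside the family, miR-503-5p (6.79e-05). With the block and the GC correction together, 60 rows were called, and miR-503-5p passed (0.0484).

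Some directions reversed. miR-195a-5p ranged from -1.27 to 0.15 with 1 library left out and was positive without damaged replicate 1 (0.15 with edgeR, 0.18 with DESeq2, 0.21 with limma-voom). miR-16-2-3p ranged from -0.92 to 3.21, with -0.28 without WT replicate 1 and -0.92 without damaged replicate 2 (-0.58 and -0.78 with limma-voom). The log2 ratio of miR-15a-5p to miR-16-5p, at -0.01, ranged from -0.40 to 0.38 with 1 library left out and was 0.005 against the Mir16-2 row alone. That of miR-497a-5p to miR-195a-5p ranged from -1.72 to 0.13, and that of miR-195a-5p to miR-16-5p from -0.60 to 0.39. The cause was not tested.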
